A study of Mus musculus with 3 samples.

Results

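Nuclear receptors are transcription factors that bind DNA and, in most cases, a small lipid-soluble ligand, so that a hormone, a vitamin derivative or a fatty acid can change transcription directly. The retinoid X receptors pair with many others, among them the receptors for retinoic acid, vitamin D and thyroid hormone and the peroxisome proliferator-activated receptors (PPARs). In T cells these receptors are best known for retinoic acid, which promotes homing to the gut and regulatory T cell induction, and for vitamin D, whose receptor rises on activation. The genes described here were 10 of these receptors, listed by name out of 50600 genes in the tables, with earlier results of these data known: the retinoid X receptor genes Rxra and Rxrb, the retinoic acid receptor genes Rara and Rarg, the vitamin D receptor gene Vdr, the PPAR genes Ppard and Pparg, the thyroid hormone receptor gene Thra, the orphan receptor gene Rora and the oestrogen receptor gene Esr1.

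All values came from a single group of mouse primary T cells of strain C57BL/6NJ with a CD4+ T cell differentiation protocol, whose file headers name Th0 cells, activation and 0 h, and no comparison of treatments was possible. The group had 3 libraries, which the labels number as biological replicates 2, 3 and 4 and give 1 donor identifier. The sex-linked genes below differ between libraries, so they did not all come from 1 animal. Where each came from is not stated further, and p-values measure the spread between these libraries alone. By its label the assay was total RNA-seq, although a poly(A)+ library protocol is linked, and no sex or age is used here. Totals ran from 28340521 counts in replicate 4 through 47432940 in replicate 2 to 59698913 in replicate 3. Levels are TPM, counts corrected for the summed exon length of a gene and scaled to a fixed total per library. Every interval and floor given is for counting error alone. The T cell label was met by all 5 markers checked, among them Trac at 3374 ± 63.1 TPM and Cd4 at 1044 ± 24.7 TPM. Replicate 2 stood apart by the X-inactivation RNA Xist, at 151 TPM against 0.221 and 0.399 TPM in replicates 3 and 4, while the Y-linked Ddx3y was at 0.248, 80.0 and 72.3 TPM in replicates 2, 3 and 4. By these genes replicate 2 was female and the others male, so sex and replicate 2 cannot be told apart wherever that library differs.

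Of the 10 receptor genes, 7 reached 1 TPM in each of the libraries, against 23.4% of all genes and 46.1% of protein-coding genes. The 10 were listed with earlier results of these data known, so these shares are no test. Rxrb, Rara, Rarg, Ppard, Thra, Rxra and Rora passed, Esr1 and Vdr were below 1 TPM in all 3 libraries, and Pparg had no count. The members spanned from 0 to 147 TPM, and Rxrb and Rara together made up 65.7 ± 1.28% (SD, n = 3) of their summed TPM. The median of the protein-coding genes that reached it was 33.4 TPM, which lay between Thra and Ppard.

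**Figure D1:**
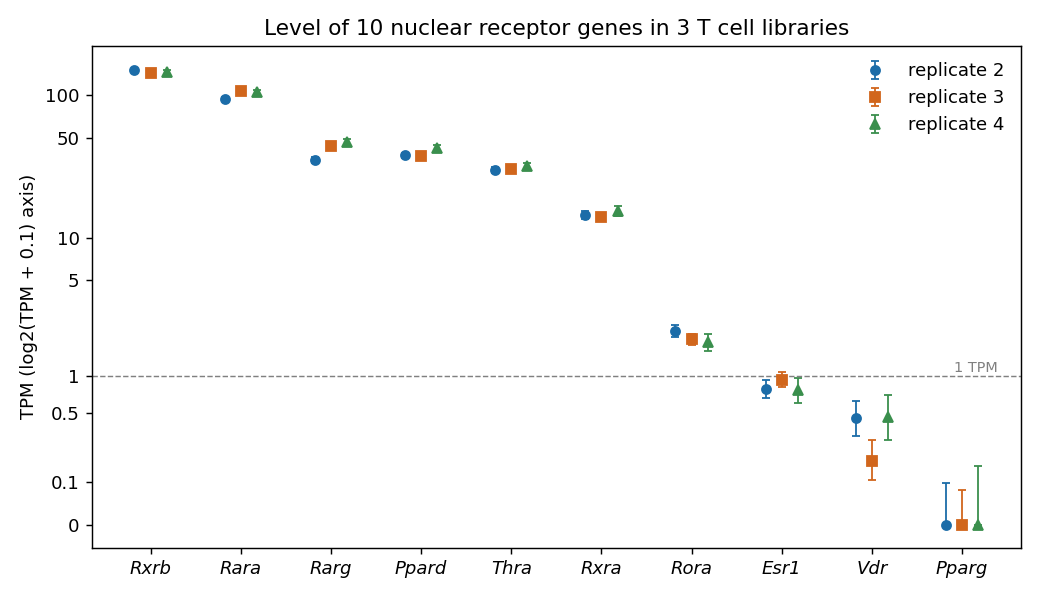
TPM of each receptor gene in replicates 2, 3 and 4 on a log2(TPM + 0.1) axis, ordered by mean; points are libraries and bars are 95% exact Poisson intervals of the counts. Rxrb was at 144 to 150.2 TPM, Esr1 and Vdr lay below the dashed line at 1 TPM, and Pparg had 0 counts in each library.

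The retinoid X receptors were represented almost entirely by Rxrb. Rxrb (ENSMUSG00000039656.16, mm10 chromosome 17, 34031812 to 34038393, plus strand) stood at 150.2, 144 and 147 TPM in replicates 2, 3 and 4, a mean of 147 ± 3.28 TPM. The coefficient of variation was 2.24%, although the 95% counting intervals of replicate 2 (146.8 to 153.7 TPM) and replicate 3 (140.7 to 146.7 TPM) fell just short of overlapping, and 88.4% of detected protein-coding genes were lower. Rxra (ENSMUSG00000015846.14, chromosome 2, 27676440 to 27762957, plus strand) stood at 14.5, 14.0 and 15.5 TPM, or 14.7 ± 0.740 TPM. The libraries of Rxra differed little, and none came near those of Rxrb. Rxrg, the remaining gene of this subfamily, had 0 counts in all libraries, where 3 pooled counts would be 0.0346 TPM. Rxrb thus held 90.9 ± 0.405% of the summed TPM of the subfamily, with values of 91.2, 91.1 and 90.4%. The pooled, length-corrected ratio of Rxrb to Rxra was 10.1, with a 95% exact interval from 9.71 to 10.5.

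Of the retinoic acid receptors, which bind all-trans retinoic acid, Rara was the higher and Rarg the next. Rara (ENSMUSG00000037992.16, chromosome 11, 98927818 to 98974942, plus strand) was at 94.5, 107 and 107 TPM in replicates 2, 3 and 4, a mean of 103 ± 6.98 TPM. Replicate 2 was the lowest, and 82.3% of detected protein-coding genes were below the mean. Rarg (ENSMUSG00000001288.14, chromosome 15, 102234938 to 102257517, minus strand) was at 35.2, 44.5 and 47.2 TPM, or 42.3 ± 6.30 TPM. Replicate 2 was again the lowest, and its 95% counting interval of 33.6 to 36.8 TPM did not reach those of replicate 3 (43.0 to 46.1 TPM) and replicate 4 (44.9 to 49.6 TPM). Rarb, a retinoic acid receptor that is itself a classical target of the ligand, had 0 counts, with a pooled floor of 0.0262 TPM. Rara held 70.9 ± 1.81% of the summed TPM of these receptors, and the pooled ratio of Rara to Rarg was 2.45 (95% exact interval 2.38 to 2.52).

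The vitamin D receptor gene was low, though above the floor of 3 counts in every library. Vdr (ENSMUSG00000022479.15, chromosome 15, 97854425 to 97910630, minus strand) had 34, 17 and 21 counts in replicates 2, 3 and 4. These amount to 0.457, 0.181 and 0.466 TPM, with 95% exact Poisson intervals from 0.317 to 0.639, 0.105 to 0.289 and 0.289 to 0.713 TPM. Replicate 3, the most deeply sequenced library, was the lowest. Its interval did not reach that of replicate 2 and only just met that of replicate 4, while those of replicates 2 and 4 overlapped. The mean was 0.368 ± 0.162 TPM, the largest relative spread of the members with counts, at a coefficient of variation of 44.1%.

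The PPARs, which sense fatty acids and their derivatives, divided between one expressed gene and others at or near 0. Ppard (ENSMUSG00000002250.15, chromosome 17, 28232754 to 28301469, plus strand) stood at 38.1, 37.5 and 42.7 TPM, a mean of 39.4 ± 2.82 TPM, with replicate 4 the highest. Pparg (ENSMUSG00000000440.12, chromosome 6, 115360951 to 115490399, plus strand), the regulator of fat cell differentiation that regulatory T cells of adipose tissue also use, had 0 counts in all 3 libraries. The floor of 3 counts is 0.0772, 0.0610 and 0.127 TPM in replicates 2, 3 and 4, and 0.0269 TPM over the pooled libraries. The 95% exact Poisson upper limits of 0 counts were somewhat higher, at 0.0949, 0.0750 and 0.157 TPM in these libraries. With Pparg set at the pooled floor, Ppard was at least 1443-fold higher. Ppara, which drives fatty acid oxidation in liver, had 3 counts, and the ratio of Ppard to it was 1875 with a wide 95% exact interval from 641 to 9093.

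The thyroid hormone receptor gene Thra (ENSMUSG00000058756.13, chromosome 11, 98740638 to 98769006, plus strand) was among the steadiest members, at 30.0, 30.3 and 31.9 TPM, or 30.8 ± 1.035 TPM. Its paralogue Thrb averaged 2.02 ± 0.625 TPM, and the pooled ratio of Thra to Thrb was 14.5 (95% exact interval 13.3 to 15.9). That interval leaves out the spread between libraries, where Thrb was at 2.665, 1.989 and 1.416 TPM in replicates 2, 3 and 4. The log2(TPM + 0.1) difference of Thra and Thrb was 3.445, 3.865 and 4.40 in the same order. The last 1075 bases of Thra overlap Nr1d1, a clock repressor gene on the opposite strand (98767932 to 98775333), which was at 4.655 ± 0.559 TPM. The authors counted by strand, so that read pairs of these genes were separated.

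Rora and Esr1 lay near the detection threshold. Rora (ENSMUSG00000032238.17, chromosome 9, 68653786 to 69388246, plus strand), a receptor of the clock and of innate lymphoid and helper T cells, was at 2.18, 1.875 and 1.79 TPM in replicates 2, 3 and 4, or 1.95 ± 0.203 TPM, and the counting intervals of the libraries overlapped. Rorb had 0 counts. Esr1 (ENSMUSG00000019768.16, chromosome 10, 4611593 to 5005614, plus strand), the gene of oestrogen receptor α, had 142, 213 and 84 counts, which are 0.789, 0.937 and 0.771 TPM, or 0.832 ± 0.0907 TPM. Esr2 had 0 counts, with a pooled floor of 0.0236 TPM. Both values depend on the length used, since the merged exons span 13071 bases in Rora and 13661 in Esr1. With the longest annotated coding transcript as the length (6339 bases for Esr1), Esr1 came to 1.24, 1.47 and 1.21 TPM and passed 1 TPM in all libraries.

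To set sequence beside these levels, the 250 bases upstream of the most upstream RefSeq start (GRCm38.p6, the assembly of mm10) are shown for the highest member, for the member with no count and for a low member, each 5′ to 3′ on the gene's strand with CpG dinucleotides in capitals. The windows are chr17:34031562-34031811 for Rxrb, chr6:115360894-115361143 for Pparg and chr10:4611739-4611988 for Esr1.
Rxrb: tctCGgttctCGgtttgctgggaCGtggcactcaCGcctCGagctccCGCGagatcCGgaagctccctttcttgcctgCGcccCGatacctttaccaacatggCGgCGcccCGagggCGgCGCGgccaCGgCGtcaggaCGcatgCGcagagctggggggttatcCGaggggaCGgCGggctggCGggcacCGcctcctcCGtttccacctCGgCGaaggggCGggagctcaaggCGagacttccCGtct
Pparg: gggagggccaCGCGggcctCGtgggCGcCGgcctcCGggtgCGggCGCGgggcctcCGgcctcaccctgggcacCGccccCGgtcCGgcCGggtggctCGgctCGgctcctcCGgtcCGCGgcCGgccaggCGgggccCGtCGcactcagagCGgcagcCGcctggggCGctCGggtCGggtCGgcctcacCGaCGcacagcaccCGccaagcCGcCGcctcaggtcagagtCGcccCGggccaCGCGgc
Esr1: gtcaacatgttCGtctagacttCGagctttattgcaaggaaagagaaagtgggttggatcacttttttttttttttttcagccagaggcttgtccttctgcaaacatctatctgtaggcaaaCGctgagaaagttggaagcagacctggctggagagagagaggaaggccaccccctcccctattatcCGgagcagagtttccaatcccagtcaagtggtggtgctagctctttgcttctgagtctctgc
The Rxrb window held 31 CpG and that of Pparg 38, the latter more than in 98.1% of 32851 RefSeq promoter windows of this length, while that of Esr1 held 4. The table matched 9 of the 10 genes, all but Thra, and the other windows held 40 CpG for Rxra, 26 for Rora, 22 for Ppard, 13 for Rara, 11 for Rarg and 11 for Vdr, against a median of 6 over all windows. CpG number thus did not order the genes as their RNA did in these windows, the gene with 0 counts being the next after Rxra. The sequence AGGTCA, the core motif that many nuclear receptors bind, was searched on both strands and was found in 2 of the 9 windows, those of Pparg and Rarg, and in 14.0% of all windows. Of the 9 genes, 6 have further RefSeq starts, whose windows were not used for these counts.

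The order of the members by mean TPM was Rxrb, Rara, Rarg, Ppard, Thra, Rxra, Rora, Esr1, Vdr and Pparg. Rarg and Ppard could not be ordered, because Rarg was lower in replicate 2 and higher in the other 2 libraries, with a difference of 0.09 ± 0.19 on the log2(TPM + 0.1) scale. The other 8 neighbouring pairs kept their order in 3 of 3 libraries with no overlap. Their differences ran from 0.355 ± 0.06 for Ppard over Thra to 2.855 ± 0.18 for Rxra over Rora. With the longest coding transcript as the length, Thra rose to 42.1 ± 1.397 TPM and stood above Ppard at 40.5 ± 2.88 TPM, so the order of Rarg, Ppard and Thra depended on the length.

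Within subfamilies, 10 contrasts were tested on the log2(TPM + 0.1) scale. Rara exceeded Rarg by 1.28 ± 0.13, Rxra was below Rxrb with a difference of -3.31 ± 0.07, and Thra exceeded Thrb by 3.90 ± 0.48 (SD, n = 3). The sign was the same in 3 of 3 libraries for all 10, and each had a p of 0.25 (exact permutation by sign flips, two-sided), or 0.25 adjusted over the 10. With 3 libraries no smaller p can be reached, so none could pass 0.05. In 7 of the 10 contrasts the lower gene had 3 counts or fewer, so their sign could hardly differ between libraries and their size depends on the pseudocount. As lower bounds at the pooled floor, Rara was at least 3913-fold above Rarb, Rxrb at least 4241-fold above Rxrg, Rora at least 274-fold above Rorb and Esr1 at least 36.1-fold above Esr2.

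Among 48 nuclear receptor genes, 21 reached 1 TPM in each of the libraries and 21 had 0 counts. The members held 40.5 ± 0.544% of the summed TPM of this family. Rxrb ranked number 2 and Rara number 3 in it. The highest was Nr1h2, the gene of the oxysterol receptor LXRβ, at 181 ± 6.30 TPM, and Nr4a1, which T cell receptor signals induce, stood at 101 ± 3.56 TPM, a difference from Rara smaller than the SD of either. Of the other 38 genes 14 reached 1 TPM throughout, with a median of 0 TPM, against a median of 22.7 TPM for the 10. The 10 were listed with earlier results of these data known, and the part of that choice in this difference was not tested. The summed TPM of the retinoid X receptors was 162 ± 3.56, and that of the 6 members that pair with them (Rara, Rarg, Vdr, Ppard, Pparg and Thra) was 215 ± 15.6. The ratio of partners to retinoid X receptors was 1.20, 1.39 and 1.41 in replicates 2, 3 and 4. It was lowest in replicate 2, as were Rara, Rarg and, by little, Thra, which are part of the partner sum. Counting the other partners in the family list as well, such as Nr1h2 and Nr4a1, it was 3.12 ± 0.1796.

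**Figure D2:**
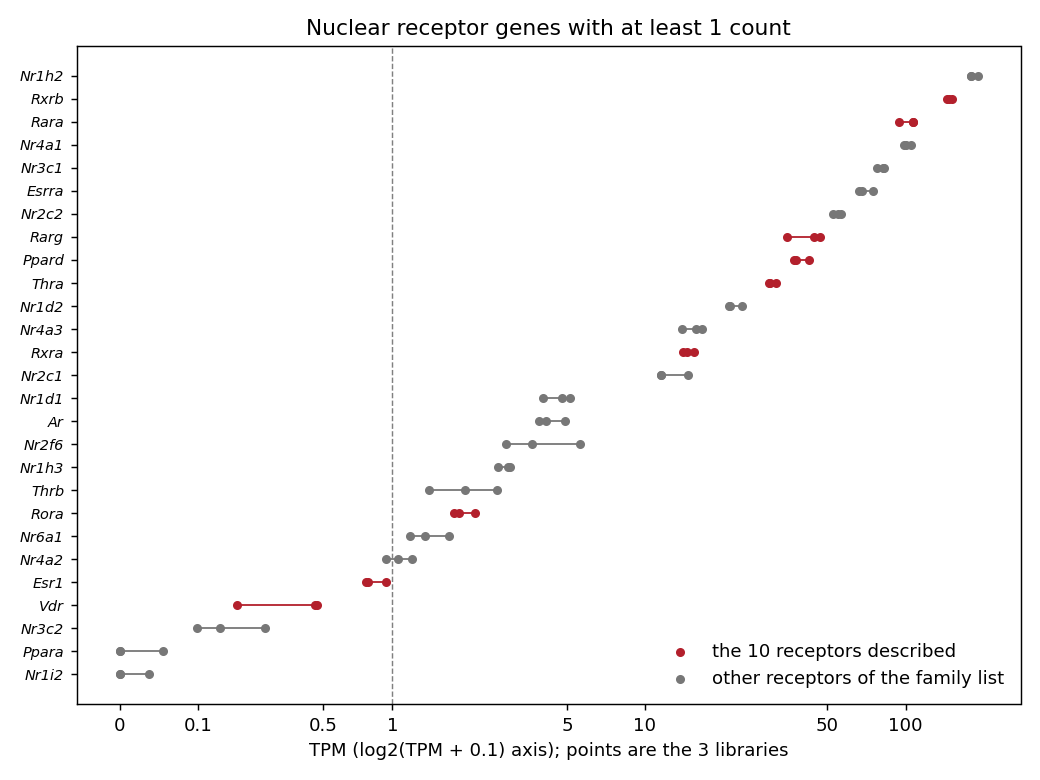
TPM of the 27 nuclear receptor genes with at least 1 count, on a log2(TPM + 0.1) axis; each point is a library, red marks the members and the dashed line is 1 TPM. Rxrb and Rara lie near the top, after Nr1h2, and Esr1 and Vdr lie left of the line.

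No member was called as varying among libraries more than genes of its abundance. In the goodness of fit test of edgeR, 0 of 9 members tested passed an adjusted p of 0.05, against 0.533% of the 13498 genes tested, and Pparg could not be tested. At an unadjusted p below 0.05 there was 1 member, Rarg, with a log2 range of 0.48 and the highest library 1.34-fold above the lowest. Its p in edgeR's test was 0.0167 and its adjusted p 0.804. Of all genes tested, 4.10% had an unadjusted p below 0.05. That low unadjusted p rested on replicates 2 and 4: in edgeR's test it was 0.356 without replicate 2, 0.0208 without replicate 3 and 0.0804 without replicate 4. The median log2 range was 0.23 over the 9 members, 0.19 over all genes tested and 0.14 over detected protein-coding genes. It was smallest for Rxrb, at 0.06, and largest for Vdr, at 1.27, which had 72 counts in all (unadjusted p = 0.113, adjusted p = 1 in edgeR's test).

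**Figure D3:**
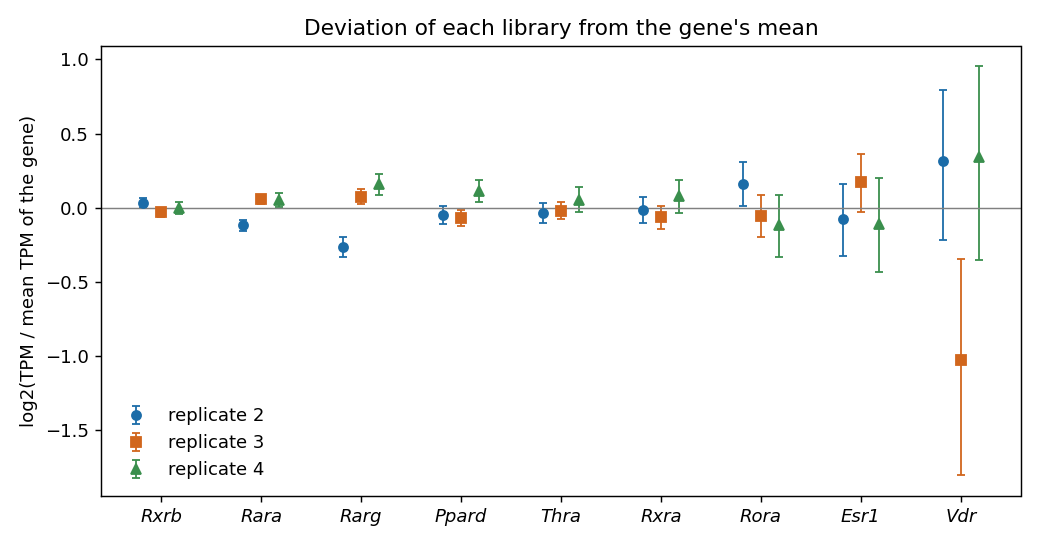
log2 of each library's TPM over the mean TPM of the gene, for the 9 members with counts; bars are 95% exact Poisson intervals. Rara, Rarg and, by little, Thra were lowest in replicate 2, and Vdr was lowest in replicate 3, with wide intervals.

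**Figure D4:**
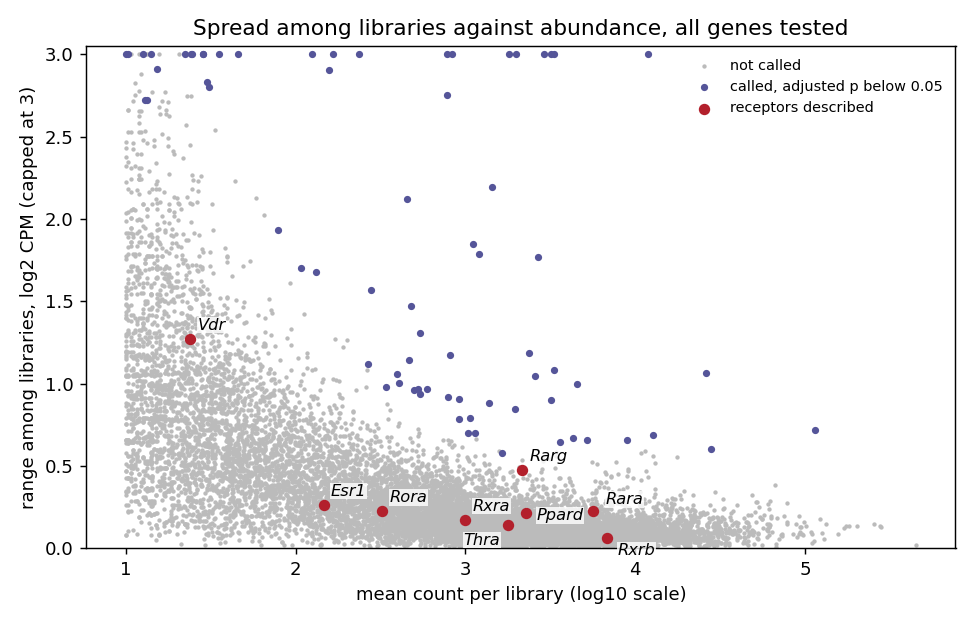
Range among the 3 libraries in log2 CPM (capped at 3) against the log10 mean count, for the 13498 genes tested; blue points passed an adjusted p of 0.05 and red points are members. The members lie within the grey cloud, Rarg near its upper edge at 0.48.

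Rara and Rarg were lowest in replicate 2, the library that also differed in Xist and Ddx3y. Thra was lowest there by little, at 30.0 TPM against 30.3 and 31.9 TPM in replicates 3 and 4. This was not common to the members, since Rxrb, Rxra, Ppard and Vdr were lowest in replicate 3 and Rora and Esr1 in replicate 4. The ratio of partners was lowest in replicate 2 too, but it counts Rara, Rarg and Thra, so it is not a separate observation. The unadjusted p of Rara in edgeR's test was 0.267. Regulatory T cell and B cell markers did not set replicate 2 apart in common. Of the myeloid markers, all but Cd68 were lowest in replicate 2. Foxp3, which defines regulatory T cells and whose lineage retinoic acid favours, was at 5.12, 7.45 and 6.98 TPM in replicates 2, 3 and 4, with an adjusted p of 1 in edgeR's test. All 4 regulatory T cell markers reached 1 TPM throughout, with summed levels of 19.5, 20.75 and 22.9 TPM. Ikzf2 was lowest in replicate 2 as well, at 1.33, 1.75 and 1.58 TPM, but Ctla4 was highest there, at 9.52, 8.71 and 8.88 TPM, and Il2ra was lowest in replicate 3, at 3.48, 2.83 and 5.49 TPM. The 5 B cell markers, all at 1 TPM or more, summed to 43.6, 48.6 and 34.1 TPM, and the 5 myeloid markers, 2 of them at that level and none at 0 pooled counts, summed to 15.95, 17.0 and 16.9 TPM. The part of these cells in the receptor levels was not tested, and in bulk samples fewer cells of a type and less RNA per cell cannot be told apart. Of 4 fat cell markers, Lep and Plin1 were at 0 counts and Adipoq and Fabp4 had 13 and 4 counts, beside the 0 counts of Pparg. Of 3 epithelial markers Epcam passed 1 TPM, at 2.98 ± 0.113 TPM, and Krt8 was at 0 counts.

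The cofactors through which these receptors act were nearly all present. All 8 corepressor genes reached 1 TPM throughout. Their median was 79.45 TPM, and they were led by Gps2, a subunit of the corepressor complex, at 285 ± 17.8 TPM, and by Ncor1, a scaffold of that complex, at 183 ± 6.66 TPM. Of 13 coactivator genes 12 passed, with a median of 57.7 TPM. The receptor coactivator Ncoa3 stood at 180.0 ± 6.99 TPM and the acetyltransferase gene Ep300 at 84.4 ± 1.67 TPM. The exception was Ppargc1a, the PPAR coactivator of mitochondrial biogenesis, with 18 counts and 0.0635 ± 0.0634 TPM.

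Genes that make, carry or degrade the ligands were mostly low. Of 15 retinoid genes 2 passed 1 TPM in every library, the retinol dehydrogenase genes Rdh11, at 25.6 ± 0.325 TPM, and Rdh10, at 11.7 ± 0.469 TPM. Aldh1a1, Aldh1a2 and Aldh1a3, which encode the enzymes that make retinoic acid, had 0 counts. Of the genes whose enzymes degrade it, Cyp26b1 had 2 counts, Cyp26a1 23 (0.382 ± 0.213 TPM) and Cyp26c1 30 (0.434 ± 0.218 TPM). Of 5 vitamin D genes 2 passed, Dhcr7, which turns the vitamin's precursor into cholesterol, at 29.6 ± 2.02 TPM and the 25-hydroxylase gene Cyp2r1 at 2.625 ± 0.545 TPM, and the activating enzyme Cyp27b1 was at 1.06 ± 0.360 TPM. Of 8 thyroid hormone genes the transporter gene Slc16a10 alone passed, at 8.32 ± 0.527 TPM, and the deiodinase genes Dio1 and Dio3 had 0 counts. Of 4 fatty acid carriers Fabp5 passed, at 1.62 ± 0.202 TPM, and of the 3 oestrogen genes with values Hsd17b1 passed, at 3.87 ± 0.458 TPM, while the aromatase gene Cyp19a1 had 0 counts.

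Known target genes were counted for each receptor, and presence alone does not show that a receptor acts on them. Of 14 PPAR targets 10 reached 1 TPM throughout. Their list had a median of 25.7 TPM and was led by the mitochondrial carrier gene Ucp2 at 415 ± 34.4 TPM, the fatty acid oxidation genes Acadvl at 169 ± 7.77 TPM and Cpt1a at 123 ± 16.7 TPM, while Pdk4 had 0 counts. Of 11 retinoic acid targets 3 passed. These were the integrin genes Itgb7, at 1564 ± 106.5 TPM, and Itga4, at 118 ± 11.8 TPM, whose products form the gut-homing integrin α4β7, and the gut-homing chemokine receptor gene Ccr9, at 2.07 ± 0.570 TPM. Rarb and Cdx1 of the same list had 0 counts, and Cyp26a1, also in it, had 23.

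The lists of the remaining receptors, apart from the short list of genes with ROR elements, had few genes present. Of 6 vitamin D targets Tnfsf11 passed, at 6.76 ± 0.906 TPM, and Cyp24a1, the enzyme that inactivates the hormone and its most sensitive target, had 0 counts. Of 3 genes with ROR elements 2 passed, the clock gene Arntl at 12.9 ± 0.201 TPM and Nr1d1. Of 5 thyroid hormone targets Klf9 passed, at 1.405 ± 0.406 TPM, and of 7 oestrogen targets Xbp1, at 51.15 ± 0.292 TPM, while Greb1 and Pgr had 0 counts. No gene of any list passed the test of variation: 0 of 98 tested had an adjusted p below 0.05 in edgeR's test, and 10 an unadjusted p below 0.05, which is 10.2% against the 4.10% of all genes tested. These 10 include Rarg and 3 markers of other cells or of regulatory T cells, Il2ra, Pax5 and Csf1r, named after their values were seen. The smallest adjusted p was 0.115, for Il2ra.

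**Figure D5:**
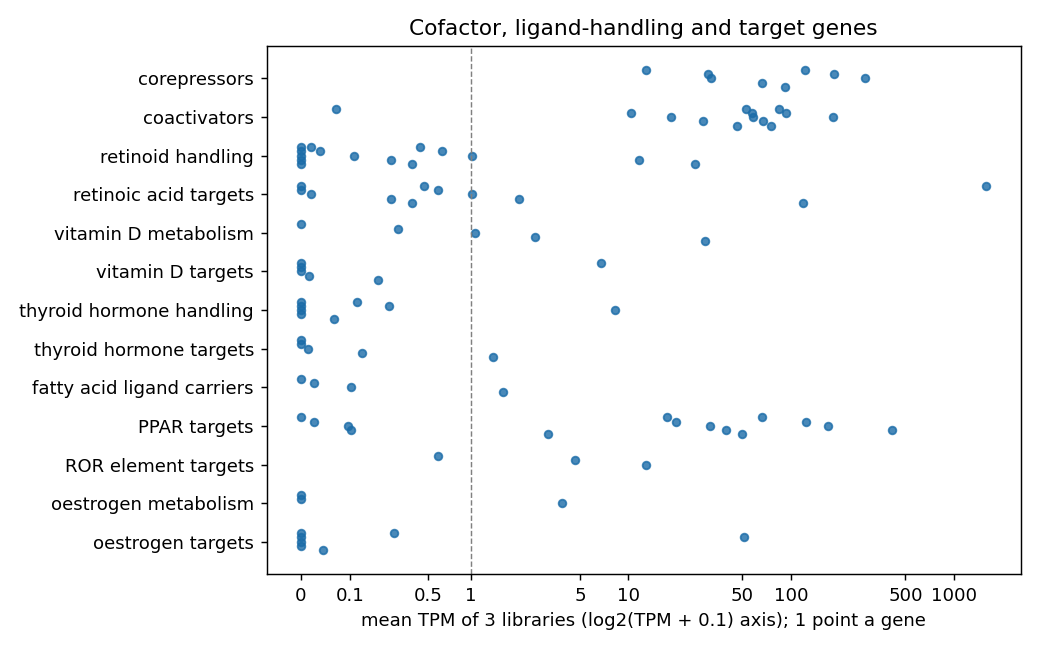
Mean TPM over 3 libraries of each gene in the cofactor, ligand-handling and target lists, on a log2(TPM + 0.1) axis; each point is a gene, points are spread vertically for legibility and the dashed line is 1 TPM. Corepressors and coactivators lie right of the line except Ppargc1a, while most genes of ligand handling lie at or left of it.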

How the data were processed

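RNA of mouse T cells was counted per gene in 3 libraries of 1 group. Per the file headers, the deposited values are raw counts of read pairs, made by the authors with featureCounts 1.4.6-p4 over exons of GENCODE M13 on mm10, with both ends required and reverse strand counting; the aligner's version is not given in the sources used here. No option for multiply aligned reads appears, so near-identical copies may be undercounted.

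Symbols were matched by Ensembl identifier (50376 of 50600 genes), and biotypes came from GENCODE M21. TPM were computed from counts and the deposited exon length, and their floor was 3 counts. Genes whose mean count reached 10 were fitted in edgeR 4.0.16 (R 4.3.3) with a common mean per gene, TMM factors and a dispersion trend, and the lack of fit was tested, with Benjamini-Hochberg adjustment at 0.05. The code was tested on simulated data. Contrasts used log2(TPM + 0.1), tested by exact sign-flip permutation (two-sided). Ratios used pooled counts corrected for length, with 95% exact binomial intervals. DESeq2 1.42.0 supplied alternative size factors. All 10 members are named, with up to 4 of the highest and 4 low or undetected genes of each list, and the paralogues of the contrasts. Cyp26a1, Cyp26c1 and the single myeloid markers were named after their values were seen. The members and lists were chosen with earlier results of these data known, and 1 further receptor is not reported here. Likeness to other genes was not computed, since 3 libraries are too few. Python 3.11.15, numpy 2.4.6, scipy 1.17.1 and pandas 2.3.3 were used. Promoter sequences are from RefSeq (GRCm38.p6).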

Additional observations from a re-analysis of the deposited data

How the results depend on the processing

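The count of 7 members at 1 TPM or more was 8 at 0.5 TPM and 6 at 2 and 5 TPM, and 7 without any 1 library. With the longest coding transcript as the length, an alternative added after seeing the data, it was 8, Esr1 being the addition. No member was called as varying in edgeR's test in any of the 7 alternatives, among them a common dispersion, which called 312 genes in all against 72, gave an unadjusted p below 0.05 for Rarg and Vdr and a smallest adjusted p of 0.119, for Vdr. Without replicates 2, 3 and 4 the genes called fell to 35, 39 and 46. All 10 contrasts kept their sign in every alternative, including CPM without length correction. In 7 of the 10 the lower gene had 3 counts or fewer, so their sign could hardly change. The alternatives bear on the sign of Rara over Rarg, Rxrb over Rxra and Thra over Thrb alone. With the longest transcript Rara minus Rarg was 1.175 against 1.28, Rxra minus Rxrb -3.65 against -3.31, and Thra minus Thrb 4.71 against 3.90. Mean levels moved by more than the SD between libraries for 5 of 10 members with the longest transcript, up to 1.57-fold for Esr1, for 5 with TPM over protein-coding genes alone and for 2 without genes under 200 bases. Leaving out a library moved none by more than that. Esr1, Vdr and Pparg had the fewest counts of the members, with 439, 72 and 0 in all, and the effect of depth was not tested. No paired analysis was possible because there is a single group.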
